A study of Mus musculus with 14 samples.

Results

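This section describes 150 array features whose signal was higher in mouse embryonic stem cells after 48 h of retinoic acid, and lower after 48 h of LY294002, than in control cells. A feature is a 60-base oligonucleotide probe printed on a 2-colour microarray. The 150 were selected on measured values out of 42006 features. For each feature the deposited log ratio was turned to log2 of sample over reference, centred on the median of its array, and averaged over the 2 arrays of a group. Features had to be well above background in the sample channel on both control and both retinoic acid arrays, which 28312 were. They were then ranked by the smaller of 2 differences, retinoic acid minus control and control minus LY294002, and the 150 highest were kept. On that scale, called the rule scale here, the lower difference ran from 1.49 to 3.56. Because those 3 groups chose the features, their values are given as a description with no test. Tests are given only for the other 4 groups.

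All-trans retinoic acid is a vitamin A derivative that enters the nucleus and binds retinoic acid receptors, which sit on DNA with retinoid X receptors and switch target genes on. In embryonic stem cells it is a standard agent for starting differentiation. LY294002 inhibits phosphoinositide 3-kinase, the lipid kinase upstream of AKT, whose activity is known to help embryonic stem cells stay undifferentiated alongside the cytokine LIF. The series followed colonies of undifferentiated appearance that arise in cultures treated with retinoic acid.

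The series has 14 arrays in 7 groups of 2, all from MC1 mouse embryonic stem cells. Control day 3 cells (line MC1-ZE3) grew for 3 days in LIF+ medium that was changed daily. RA 48 h cells (MC1-ZE3) were given 50 nM all-trans retinoic acid for the last 48 h, after 24 h without it. LY294002 48 h cells (MC1-ZE3) followed the same schedule with LY294002, labelled as 10 nM. That unit may be a slip, since this inhibitor is usually given at micromolar doses. Standard day 3 cells (MC1-ZE3) were also harvested on day 3, under standard conditions. The source name of the control day 3 samples mentions growth factors, and how the cultures of these 2 groups differed is not given in the labels. Day 4 colonies (line MC1-ZE16) and day 7 colonies (MC1) grew in 50 nM retinoic acid and were picked by hand as colonies called pluripotent in the labels. Passage 10 cells (MC1-ZE3) had 7 days of retinoic acid, then 10 passages without it, and were harvested on day 3. The strain label is 129SvEv-Tac for day 7 colonies and 129/Sv for the other groups. Line, strain label, slide and group cannot be told apart for the colonies. The day 7 arrays were also scanned on a day shared with no other group, so scan day cannot be told apart from them either. Sample RNA carried Cy3, and a reference pool of 11 cell lines mixed 2:1 with embryonic stem cell RNA carried Cy5, on every array.

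The labels do not state whether both arrays of a group had their own culture, and a p-value here reflects only the spread between arrays, which may be technical. The number of arrays limits the precision of every value. Between 56.1% and 75.1% of features were well above background in the sample channel of an array. In RNA from whole cultures or pooled colonies, fewer cells of a type and less RNA per cell cannot be told apart. The labelled cell type could not be checked against marker genes, since the files pair no feature with a gene.

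The features are therefore identified by their probe identifiers and sequences. Of the 10 features with the highest scores, 9 are shown first, since they set the scale of the responses described, written 5′ to 3′ as deposited. They are all in lower case because none shares a stretch with another of the 150.
Z00025288-1: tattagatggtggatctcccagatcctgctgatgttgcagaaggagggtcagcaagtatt
Z00076304-1: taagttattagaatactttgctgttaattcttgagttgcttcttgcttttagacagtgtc
Z00071195-1: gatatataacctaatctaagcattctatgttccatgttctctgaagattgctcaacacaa
Z00060430-1: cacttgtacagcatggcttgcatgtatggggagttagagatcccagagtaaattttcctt
Z00034256-1: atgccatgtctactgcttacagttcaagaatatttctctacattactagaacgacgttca
Z00075776-1: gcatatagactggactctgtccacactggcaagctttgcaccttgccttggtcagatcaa
Z00077171-1: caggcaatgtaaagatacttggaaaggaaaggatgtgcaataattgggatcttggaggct
Z00060619-1: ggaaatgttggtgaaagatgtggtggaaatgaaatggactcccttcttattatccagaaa
Z00076164-1: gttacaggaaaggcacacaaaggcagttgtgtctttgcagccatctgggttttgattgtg

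Some of the 150 read overlapping or closely similar transcripts, so they are not 150 independent measurements. Counting pairs with at least 22 identical bases at 80% identity or more on the same strand, 25 of the 150 fell into 12 groups of like sequence. The other 125 had no like feature among the 150, which leaves 137 distinct groups and single features. The group of 3 and a pair are shown because their shared stretches, in capitals, make the overlap visible.
Z00010132-1: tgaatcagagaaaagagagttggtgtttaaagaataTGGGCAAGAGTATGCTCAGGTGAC
Z00073984-1: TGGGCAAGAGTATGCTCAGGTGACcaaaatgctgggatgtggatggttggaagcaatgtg
Z00073931-1: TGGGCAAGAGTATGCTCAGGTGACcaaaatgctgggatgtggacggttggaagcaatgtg
Z00031278-1: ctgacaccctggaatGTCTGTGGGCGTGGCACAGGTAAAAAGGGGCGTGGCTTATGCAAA
Z00061371-1: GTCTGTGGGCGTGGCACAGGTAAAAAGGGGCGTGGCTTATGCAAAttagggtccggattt

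The last 24 bases of Z00010132-1 were the first 24 bases of the other two features of its group. Z00073984-1 and Z00073931-1 matched at 59 of 60 bases, with the substitution T44C counted from the 5′ end. Z00031278-1 and Z00061371-1 overlapped by 45 identical bases. Probes to 1 transcript and probes to close copies of a gene can both overlap in this way, and which of these applies here was not tested.

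A further 3 sequences belong to features singled out by the results below. Z00000270-1 changed most in the colonies, Z00035257-1 changed most at passage 10, and Z00060294-1, in capitals throughout because every base matched, was the 1 feature of the 150 found in a RefSeq window around a gene start.
Z00000270-1: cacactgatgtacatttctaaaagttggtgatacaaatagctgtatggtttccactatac
Z00035257-1: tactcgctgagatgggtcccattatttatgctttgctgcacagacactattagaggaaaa
Z00060294-1: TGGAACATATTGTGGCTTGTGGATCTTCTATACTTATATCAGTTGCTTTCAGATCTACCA

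Z00060294-1 matched at 60 of 60 bases on the + strand of chr12:87795362-87795421 in GRCm38.p6, which is 138 to 79 bases before the annotated start of the predicted gene Gm21936. Over the whole array, 336 features (0.8%) had a match to one of the 32851 windows. The match gives a position in that build and does not name the transcript measured.

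The sequences of the 150 had a median of 43.3% G and C, beside 45.0% for the features that met the background condition. At least 1 of the 3 sense reading frames was free of stop codons in 83.3% of the 150 and 83.0% of those features. The hexamers AATAAA or ATTAAA, the usual signals for adding a poly(A) tail, were present in 15.3% against 10.6%. A like feature anywhere on the array was found for 24.7% of the 150 and 11.2% of those features. The 23 like features that were not selected included 15 that met the background condition, and 13 of those 15 were also above control with retinoic acid and below control with LY294002, some by values near 0. Both differences exceeded 1 on the rule scale in 7 of the 15. Over all features that met the background condition, 17.2% were on these sides of control and 1.25% had both differences above 1. Z00057429-1, which was not selected, had the same 60 bases as Z00059496-1 of the 150. Its retinoic acid difference was 1.17 and its LY294002 difference 2.85 on the rule scale, against 2.01 and 2.05 for Z00059496-1. The same sequence thus fell on both sides of the cut. In the reference channel, 61.3% of the 150 were well above background on all 14 arrays, against 88.7% of features that met the background condition, and 7 of the 150 were so on 0 arrays. The selected features were thus often dim in the reference pool.

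Values from here on are log2 of sample over reference after background correction with an offset of 50 and loess normalization within each array, unless the rule scale is named. The offset draws values of dim features towards 0, so differences are smaller on this scale than on the rule scale. The median array value of the 150 was 0.47 on both control arrays, 2.48 and 2.44 on the RA 48 h arrays, and −0.51 and −0.34 on the LY294002 arrays. It was 0.06 and 0.09 on the standard day 3 arrays and −0.02 and 0.01 on the passage 10 arrays. The colonies lay between those and the RA 48 h arrays, at 1.06 and 0.91 on day 4 and at 1.65 and 1.26 on day 7.

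**Figure D1:**
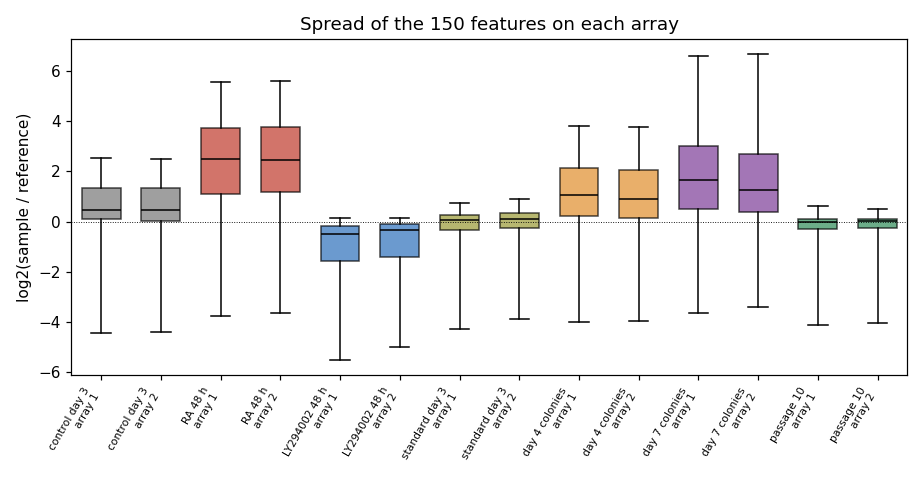
Boxes show the middle of the distribution of the 150 features on each of the 14 arrays, the line in each box is the median and the whiskers reach the lowest and highest feature, in log2 of sample over reference. The RA 48 h arrays were highest (medians 2.48 and 2.44) and the LY294002 arrays lowest (medians −0.51 and −0.34), and these 3 groups on the left chose the features.

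On the rule scale, retinoic acid minus control had a median of 2.15 over the 150 and control minus LY294002 a median of 2.69, with highest values of 4.12 and 6.61. At the threshold, the last 2 features selected were Z00074881-1 (1.492) and Z00000270-1 (1.491), and the next 2 were Z00075380-1 (1.491) and Z00060458-1 (1.489). The edge of the selection therefore separates features by far less than the differences themselves.

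The directions given next were favoured in advance by the selection, and their counts were not made over all features. After loess normalization, RA 48 h was above control day 3 on both arrays for all 150 features, with a median difference of 1.84. LY294002 was below control on both arrays for 142, with a median difference of −0.82. Both LY294002 arrays were on a slide of their own, while control and RA 48 h arrays shared another. Slide and LY294002 treatment therefore cannot be told apart in this difference or in the selection. The signal under LY294002 was often too dim to measure. It was well above background on both LY294002 arrays for 62 of the 150, on 1 array for 16 and on 0 arrays for 72. For the 62, the median difference from control was −2.01. For the 72 only a bound can be given, computed in the Cy3 channel after loess and quantile scaling between arrays, which is open to dye bias without dye swaps. Where the fold of the sample-over-reference means was lower than the Cy3 bound, that fold was taken instead. The bound on control over LY294002 was 1 or more for 70 of the 72, with a median of at least 1.31-fold, and reached 2-fold for 7. Its lowest value was 1, where no fall can be stated. By group means after loess, LY294002 was above control in 3 of the 150. The bound on RA 48 h over LY294002 was above 1 for all 72, with a median of at least 3.26-fold, and reached 2-fold for 56.

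The feature with the highest score, Z00025288-1, read 0.26 and 0.08 in control cells, 3.21 and 3.17 with retinoic acid, and −0.63 and −0.34 with LY294002. Its LY294002 signal was not well above background on either array, so control was at least 1.45-fold and RA 48 h at least 12.1-fold above it. Standard day 3 (0.34 and 0.28) was close to control for this feature. Z00034256-1 was measured above background in every group and read 1.92 and 2.01 in control cells, 5.20 and 5.28 with retinoic acid, and −2.82 and −2.69 with LY294002. It was 9.69-fold higher with retinoic acid than in control cells, and control was 26.4-fold above LY294002. No arrays of these 3 groups overlapped for either feature.

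Z00076164-1 had a similar shape, with 2.32 and 2.46 in control cells, 5.33 and 5.35 with retinoic acid, and −2.29 and −2.54 with LY294002. Z00071195-1 read 2.36 and 2.27 in control, 5.57 and 5.60 with retinoic acid, and was not well above background with LY294002, where control was at least 10.2-fold and RA 48 h at least 102-fold higher. Z00023692-1, with the largest retinoic acid difference on the rule scale (4.12), was below the reference in control cells (−1.72 and −1.64) and above it with retinoic acid (1.32 and 1.46). Over the 150, group means ran from −3.69 to 5.58 with retinoic acid and from −5.24 to 0.12 with LY294002. At least a 2-fold excess over the reference was reached by 116 features with retinoic acid, 48 in control cells and 0 with LY294002.

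Standard day 3 gave a second baseline for these features. Because control and LY294002 values chose the features, high control and low LY294002 values against this baseline were favoured in advance. Control day 3 was above standard day 3 in 128 of the 150 by group means, and on both arrays against both for 123. The median difference was 0.53, beside 0.02 for all tested features, over which no such counts were made. Of all features, 73.1% and 74.8% were well above background on the control arrays, against 58.2% and 57.9% on the standard day 3 arrays. The standard day 3 mean lay between LY294002 and control for 116 features, between control and RA 48 h for 21, below LY294002 for 12 and above RA 48 h for 1. LY294002 was below standard day 3 in 138, with a median difference of −0.43, beside 0.01 for all tested features. The −0.43 is smaller in size than the −0.82 from control day 3. Without loess, with arrays centred on their medians, the LY294002 minus standard day 3 difference had a median of −0.30 over the 150 while that of all tested features was 0.20. The control, RA 48 h and LY294002 arrays were scanned on one day and the standard day 3 arrays on others, so slide, scan day and any difference in culture cannot be told apart in the gap between the 2 baselines.

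Where both LY294002 and standard day 3 were above background on both arrays, 55 features, LY294002 was lower in each of the 55, with a median difference of −1.12. The selection on low LY294002 values favours this direction, and no such count was made over all features. Z00000270-1 shows how far the baselines can part. It read 2.19 and 2.19 in control cells but −0.77 and −0.90 in standard day 3 cells, close to its LY294002 values of −0.99 and −1.06. For that feature the fall with LY294002 is seen from control day 3 and is −0.19 from standard day 3.

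**Figure D2:**
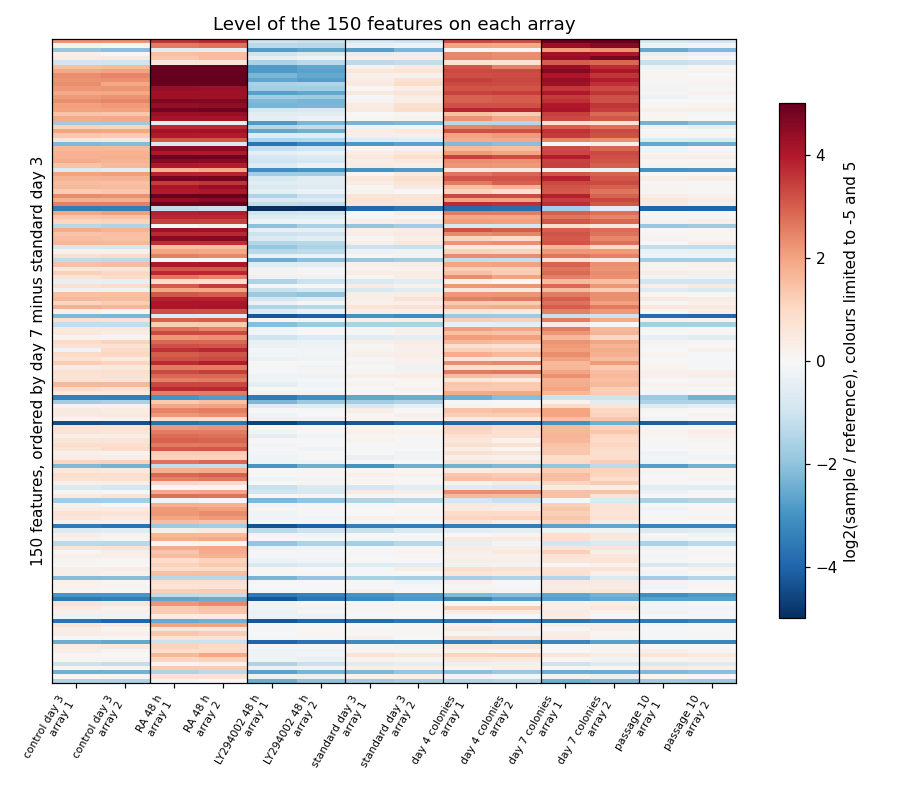
Each line is 1 of the 150 features and each column 1 of the 14 arrays; colour is log2 of sample over reference (red above, blue below), with features ordered from the largest to the smallest day 7 minus standard day 3 difference. Standard day 3 and passage 10 columns are near white for most features, and both kinds of colony are red for most of the upper lines.

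The first comparison outside the selection asked how the 150 features stood in colonies picked on day 4 of retinoic acid. They were higher than in standard day 3 cells for 121 of 150 and lower for 1, by limma's moderated test. A change was called at an adjusted p under 0.05, with Benjamini-Hochberg adjustment across the 31053 features tested. Over all tested features, 25.2% were raised and 23.2% lowered. At least a 2-fold rise was called for 79 of the 150, beside 3.41% of all tested features. The median change was 1.04, beside 0.01 for all tested features. Against the 1 standard day 3 array scanned on the same day as the day 4 arrays, both day 4 arrays were higher for 136 of the 150, with a median change of 1.06. That count was not made over all tested features. By group means, 143 of the 150 and 16171 of the 31053 tested features were higher in day 4 colonies. On the rule scale the median over all arrays was 2.40, since that scale does not draw dim features to 0.

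Z00000270-1 rose most on day 4. It read −0.77 and −0.90 in standard day 3 cells and 3.28 and 3.18 in day 4 colonies, a 16.7-fold rise (log2 change 4.06, limma adjusted p = 1.16e-11). Z00010834-1 went from −3.00 and −2.83 to 0.54 and 0.57, an 11.1-fold rise (limma adjusted p = 1.1e-09). In both features the arrays of the 2 groups were far apart and the colony arrays nearly equal. Z00010132-1, from the group of 3 like sequences, went from 0.46 and 0.90 to 3.81 and 3.77, and its partners Z00073984-1 and Z00073931-1 rose by 2.65 and 2.46. Z00076164-1 rose by 3.01 and Z00009978-1 by 2.98. The 1 feature that fell was Z00064137-1, from 0.19 and 0.23 to −0.12 and −0.05, where the colony signal was not well above background (log2 change −0.29, limma adjusted p = 0.00476).

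In day 7 colonies more of the 150 were higher than in standard day 3 cells: 135 rose, 4 fell and 11 were not called. Over all tested features, 28.4% were raised and 25.1% lowered, as 8809 and 7784 features. With median centring in place of loess that split was 7153 and 2676. A rise of at least 2-fold was called for 108 of the 150, beside 5.34% of all tested features. The median change was 1.71, beside 0.02 for all tested features, and 2.80 on the rule scale. The day 7 arrays differed more from each other than those of other groups. The median SD over the 150 was 0.23 there and 0.05 to 0.08 in the other groups, and the first array was the higher one for 116 features. The test pools the spread of a feature over all groups, so day 7 p-values can be too small for the spread of that group.

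Z00000270-1 also rose most on day 7. It read 6.60 and 6.66, against −0.77 and −0.90 in standard day 3 cells, a 177-fold rise (log2 change 7.47, limma adjusted p = 1.15e-14). It was the last feature to enter the selection, and its day 7 level was far above its RA 48 h level of 3.56 and 3.74. Z00026923-1 went from −0.36 and −0.26 to 4.27 and 4.56, a 26.4-fold rise (limma adjusted p = 1.74e-12). Z00030559-1 went from −0.43 and −0.39 to 4.19 and 4.04, a 23.0-fold rise. Z00057519-1 went from 0.27 and 0.34 to 4.37 and 4.75, a 19.1-fold rise. All of these were above their own RA 48 h means, which were 2.64, 1.54 and 1.45 in that order. Z00007320-1 was not well above background in standard day 3 cells and rose to 2.10 and 2.23, at least 24.8-fold.

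The 15 features with the highest scores were raised in day 7 colonies in all 15 cases and in day 4 colonies in 12. Over the 150 the shares raised were 90% and 80.7%, and over all tested features 28.4% and 25.2%. Z00076304-1 read 0.19 and 0.42 in standard day 3 cells, 3.11 and 2.50 on day 4, and 4.30 and 3.71 on day 7, when it was 13.0-fold up. Z00034256-1 read 0.57 and 0.69, then 3.30 and 3.29, then 4.58 and 4.05, which was a 12.9-fold rise by day 7. Z00025288-1, first by score, read 0.57 and 0.50 on day 4 and 2.51 and 2.17 on day 7. Its day 4 difference of 0.22 did not pass the test (limma adjusted p = 0.156), and its day 7 difference of 2.03 did (limma adjusted p = 2.18e-08). Z00010296-1 and Z00064455-1 were likewise called on day 7 and not on day 4, with day 4 differences of 0.20 and 0.11 and signals not well above background in standard day 3 and day 4. The highest scores therefore did not all come with a rise on day 4.

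The features among the 15 that are described next rose on both days. Z00071195-1 and Z00060430-1 had day 7 minus day 4 differences of 0.13 and 0.04, which did not pass the test (limma adjusted p = 0.653 and 0.894). Z00060619-1 rose 6.06-fold on day 4 and 9.60-fold on day 7. Z00076355-1 rose 1.85-fold and 6.85-fold, Z00075776-1 rose 2.07-fold and 4.82-fold, and Z00077171-1 rose 1.83-fold and 5.80-fold. Z00030644-1 rose 2.96-fold and 5.39-fold, and Z00023692-1 rose 2.94-fold and 2.66-fold. For Z00060430-1, Z00076355-1 and Z00023692-1 the standard day 3 signal was not well above background, and the day 7 bounds were at least 2.16-fold, 6.42-fold and 2.66-fold.

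**Figure D3:**
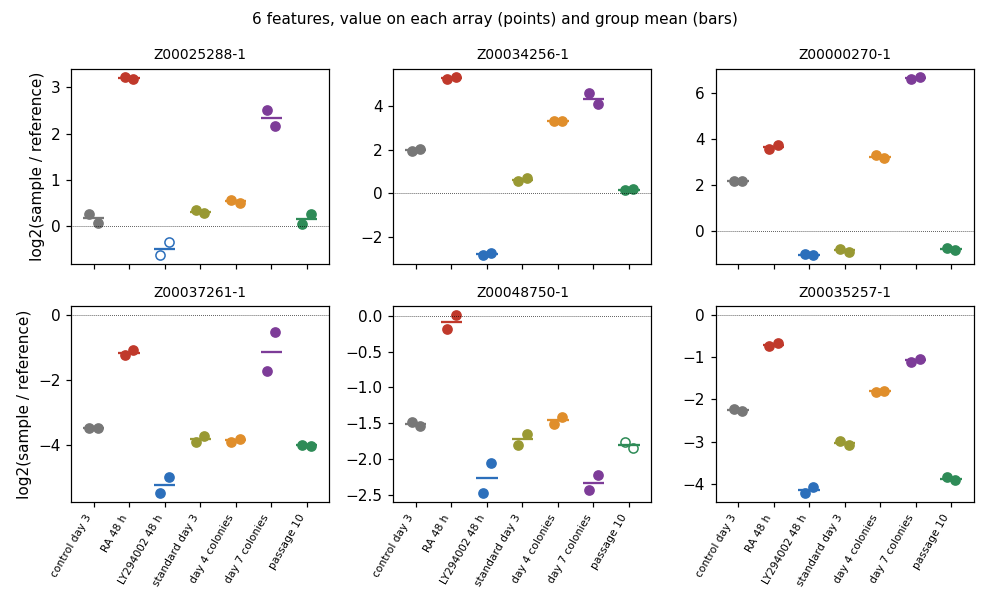
Values on each array (points) and group means (bars) are shown for 6 features, in log2 of sample over reference; open points mark groups in which fewer than 2 arrays were well above background. Z00000270-1 reaches 6.60 and 6.66 in day 7 colonies, Z00037261-1 is at its standard day 3 level on day 4 and higher on day 7, and Z00048750-1 is lowest in LY294002 and day 7 colonies.

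The day 4 and day 7 comparisons share the standard day 3 arrays, so the counts of one are not separate evidence for the other. Side by side, 116 features were raised in both kinds of colony, 77 of them at least 2-fold in both. A further 19 were called raised on day 7 alone, 5 on day 4 alone and 10 in neither. Shares over all tested features were 25.2% raised on day 4 and 28.4% on day 7, and joint shares were not computed. Taken singly, 90% of the 150 were raised on day 7 and 80.7% on day 4. Of the 12 groups of like sequence, every member was raised on day 7 in 12 groups and on day 4 in 10. Within those groups, the day 7 changes of like features lay 0.03 to 1.81 apart. The widest gap was between Z00072895-1 (1.40) and Z00031210-1 (3.21), which share 27 bases.

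Few features fell in the colonies. Z00048750-1 fell on day 7, from −1.80 and −1.65 in standard day 3 cells to −2.43 and −2.23 (log2 change −0.61, limma adjusted p = 0.000977), and was at −1.51 and −1.41 on day 4. Z00064137-1 was lower on both days, with a day 7 change of −0.46. Z00043839-1 fell by 0.32 on day 7. Z00030297-1 changed by −0.35, but its standard day 3 signal was not well above background, and on the deposited log ratios the change was 0.80, in the other direction.

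Since 59 of the 150 were not well above background on either standard day 3 array, the colony changes were also read in the 81 features measured on both. Of those 81, 71 were raised on day 4 and 72 on day 7, with median changes of 1.74 and 2.54. Shares raised over all tested features, with no such condition on standard day 3, were 25.2% and 28.4%. For the 59, a day 7 bound above 1 could be given for 55, with a median of at least 1.86-fold. The largest of these were Z00007320-1, at least 24.8-fold, and Z00000793-1, at least 18.8-fold. Both day 4 arrays were above background for 126 of the 150 and both day 7 arrays for 143.

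**Figure D4:**
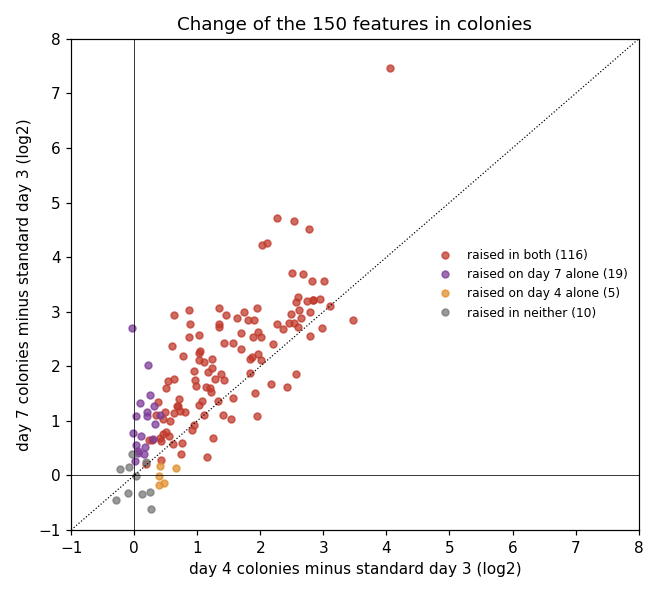
Each point is 1 of the 150 features, with its day 4 change on the horizontal axis and its day 7 change on the vertical axis, both as log2 against standard day 3; the dotted line marks equal changes and colour marks which changes were called raised. Most points lie above the dotted line, and Z00000270-1 stands apart at 4.06 and 7.47.

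Set directly against day 4 colonies, day 7 colonies were higher for 93 of the 150 and lower for 19. Over all tested features, 27.4% were higher and 25.4% lower, as 8515 and 7887 features. With median centring that split was 7777 and 2521. A difference of at least 2-fold upward was called for 35 of the 150, beside 4.36% of all tested features. The median difference was 0.46. Day 4 and day 7 colonies came from different lines, strain labels, slides and scan days, so time cannot be told apart from these.

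Z00000270-1 was 10.6-fold higher on day 7 than on day 4 (limma adjusted p = 1.64e-11). Z00037261-1 was at −3.90 and −3.81 on day 4 against −3.92 and −3.71 in standard day 3 cells (limma adjusted p = 0.925), and at −1.71 and −0.53 on day 7, 6.67-fold above day 4 (limma adjusted p = 2.36e-06). Its day 7 arrays differed from each other by more than a log2 unit. Their SD was 0.83, while the standard error of the pooled fit was 0.27, so that p understates the day 7 spread. Z00026923-1, Z00017675-1 and Z00000793-1 were 5.51-fold, 4.96-fold and 4.65-fold higher on day 7. In the other direction, Z00000661-1 went from 2.34 and 2.32 on day 4 to 1.48 and 1.44 on day 7 (log2 difference −0.87, limma adjusted p = 2.74e-06). Z00048750-1, Z00051393-1, Z00076318-1 and Z00072639-1 were lower by −0.87, −0.83, −0.82 and −0.72 on the log2 scale. All but Z00048750-1 were still above their standard day 3 level on day 7.

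Compared with RA 48 h, most features were at a lower level in the colonies. The day 7 mean was above the RA 48 h mean for 20 of the 150 and the day 4 mean for 7. Means at least 2-fold above the reference were found for 74 features on day 4 and 94 on day 7, against 116 with RA 48 h. Because high RA 48 h values chose the features, lower values in the colonies were favoured in advance. These counts therefore carry no test, and they were not made over all features.

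At passage 10, after growth without retinoic acid, 0 of the 150 were raised against standard day 3 and 6 were lowered by limma's test. Over all tested features, 1.66% were raised, 1.76% lowered and 0.0483% raised at least 2-fold. The median change of the 150 was −0.08. Standard day 3 and passage 10 arrays of the same number shared a slide, and within the 2 slides the medians were −0.07 and −0.11. On both slides 79 features were lower and 26 higher at passage 10, a count not made over all tested features. By group means, 47 of the 150 and 16161 of the 31053 tested features were higher at passage 10.

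The 6 that fell were all measured above background in both groups and all raised in both kinds of colony, as were 116 of the 150. Z00035257-1 fell most, from −2.98 and −3.09 to −3.84 and −3.92 (log2 change −0.84, limma adjusted p = 4.03e-05), while it was at −1.82 and −1.80 in day 4 colonies and at −1.11 and −1.03 in day 7 colonies. Z00000661-1 fell from 0.44 and 0.32 to −0.29 and −0.06. Z00060294-1, the feature upstream of Gm21936, read 0.36 and 0.53 in standard day 3 cells, 3.23 and 3.23 on day 4, 3.60 and 3.29 on day 7, and −0.02 and −0.08 at passage 10. The other 3 were Z00031029-1 (−0.56), Z00064570-1 (−0.43) and Z00061371-1 (−0.38), with limma adjusted p = 0.0462, 0.0493 and 0.017, of which the first 2 are close to the threshold. The calls depended on single arrays: without one of the passage 10 arrays 1 or 2 features were called, without the second standard day 3 array 2, and without the first 10. Without loess, 0 of the 150 were called.

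To place the 150 beside features that met only 1 of the 2 conditions, all features that met the background condition were divided. A set of 406 was raised by retinoic acid at least as far as the 150 but not lowered as far by LY294002. In day 4 colonies 41.6% of these were raised and 12.8% lowered, against 80.7% and 0.667% of the 150. In day 7 colonies the shares raised were 64.5% and 90.0%. The converse set of 1802, lowered by LY294002 but not raised as far by retinoic acid, had 38.2% raised on day 4 and 39.4% on day 7. At passage 10, 6.65% of the first set and 7.88% of the second were lowered, beside 4% of the 150. These differences between sets are given as counts with no test.

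Features raised by retinoic acid as far as the 150 were classed by control minus LY294002 on the rule scale. The share raised in the colonies was larger in classes with a larger difference. For features too dim under LY294002, that scale does not measure the size of the fall. Of the 150, 72 were not well above background on either LY294002 array. Z00025288-1, for example, had a difference of 3.56 on the rule scale and a bound of at least 1.45-fold. With no fall under LY294002 (228 features), 32.0% were raised on day 4 and 55.7% on day 7. With a fall of 2 to 3 on the rule scale (52 features, all within the 150) the shares were 82.7% and 88.5%. With a fall of 3 or more (59 features, all within the 150) they were 89.8% and 98.3%. The order was not strict, since day 7 shares between falls of 0.5 and 1.49 went from 78.5% to 70.8%.

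The same held along the other axis. Among features lowered by LY294002 as far as the 150, those not raised by retinoic acid (1133 features) were raised in 28.4% of cases on day 4 and 27.8% on day 7. Those raised by 2 to 3 (83 features) were raised in 85.5% and 94.0%. The top class, raised by 3 or more, held only 13 features. Within the 150, the day 7 change had a Pearson r of 0.54 and a Spearman rho of 0.58 with control minus LY294002 on the rule scale, and 0.18 and 0.26 with retinoic acid minus control. Over the same 150, the day 4 change had an r of 0.49 and 0.19 with these differences. The size of these relations depended on the scale. After loess, the day 7 change had an r of 0.67 and a rho of 0.79 with control minus LY294002, and 0.56 and 0.65 with retinoic acid minus control. The day 4 values of r were then 0.76 and 0.58. Control minus standard day 3, also after loess, had an r of 0.69 and a rho of 0.72 with the day 7 change. Those 2 differences share the standard day 3 arrays. These are descriptions across features that share arrays, probe brightness and in part sequence, and they carry no p.

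**Figure D5:**
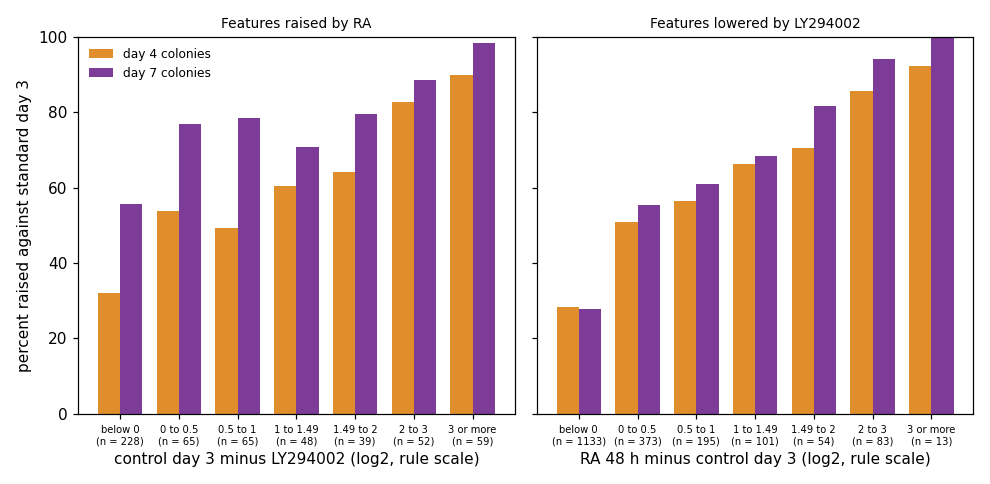
Bars give the percent of features raised against standard day 3 in day 4 (orange) and day 7 (purple) colonies, from 0 to 100, among features raised by retinoic acid as far as the 150 (left, classed by control minus LY294002) and among features lowered by LY294002 as far (right, classed by RA 48 h minus control). The 3 right-hand classes of each panel are the 150; the shares go from 32.0% and 55.7% in the left-most class to 89.8% and 98.3% in the right-most class on the left.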

How the data were processed

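Scans were made into values with Agilent Feature Extraction (version 9.5.1.1), as the file headers record. The deposited intensity values (mean signal and background per channel) are not normalized. The software also wrote processed intensities, with background subtracted and dyes normalized, per the headers. The deposited log10 ratio is Cy5 over Cy3. The authors' deposited value table of log10 values holds 25030 of the 42006 features and matched minus the log ratio column by column (r of 1 to 4 digits). Its column medians were 2.24 to 2.32, and how it was centred is not given in the sources used here.

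The deposited intensities were corrected with normexp (offset 50) and normalized by loess within arrays in limma 3.58.1 (R 4.3.3, statmod 1.5.0), and log2 of sample over reference was used. Testing required a Cy3 signal well above background in every array of some group, which 31053 features (73.9%) met. Group means were fitted over all 14 arrays (7 residual and 5.33 prior degrees of freedom) and tested with eBayes, two-sided. The steps were tested on simulated data.

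The 150 features, the gene lists and the tests were chosen with earlier results of these data known. The text names the 15 highest scores (1 of them is not reported here), the largest called rises and falls of each comparison with arrays that do not overlap, and the features at the threshold. The sixth fall at passage 10 and the features with like sequences were named after their values were seen. Gene and cell type lists could not be applied, because no table used here pairs these features with genes. Sequences at gene starts are from RefSeq (GRCm38.p6).

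Array numbers pair passage 10 with standard day 3, since by the labels' array identifiers the same number is the same slide, and their deviations correlated at r = 0.254. For the other comparisons no label ties the numbers. A bound sets the brighter group's mean against, per array, the higher of the lowest signal among features well above background and the dim feature's own, and is kept no higher than the fold of the sample-over-reference means. Alternatives were median centring, the deposited log ratios, the value table, other filters, slide, scan day or replicate number as blocks, fewer arrays, and other lengths of the selection.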

Additional observations from a re-analysis of the deposited data

Results flagged for a closer look

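The change from standard day 3 cells differed between the 2 kinds of colony, by limma's direct test of day 7 against day 4: 93 of the 150 features were higher in day 7 colonies and 19 were lower. Of all tested features, 27.4% were higher and 25.4% lower. The 2 kinds of colony also differ in line, strain label, slide and scan day, which cannot be told apart from time. No group has enough arrays to test for an outlying array.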

How the results depend on the processing

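The counts of the 150 features changed in day 4 colonies (122) and day 7 colonies (139) stayed within 1.5 times under every alternative except the filter to the 50 features above background on all arrays, which called 48 and 49 of the 50 (fewer features tested). The day 7 against day 4 count (112) was 41 of 50 under that filter and 62 of the 104 features in the authors' value table, again with fewer features. At passage 10 the count of 6 became 0 with median centring, 11 with the deposited log ratios, 11 in the value table and 2 with only the 8 arrays outside the selection, and the cause was not tested. Leaving out 1 array gave 115 to 119, 133 to 137, 1 to 10 and 95 to 127 for day 4, day 7, passage 10 and day 7 against day 4. With the replicate block the counts were 120, 139, 6 and 119, and the block moved no count by over 1.5 times; the pairing by slide ended the call of Z00064570-1 (log2 change −0.43) and of no other named feature. Z00030297-1 on day 7 was 0.8 with the deposited log ratios and 0.8 in the value table, against −0.35, and its standard day 3 signal was dim. Of all tested features, calls on day 4 went from 15049 to 7465 with median centring. On day 7 they went from 16593 to 9829, and to 11059 in the value table. At passage 10 they went from 1061 to 37 with median centring, to 397 with the 8 arrays, and to 263 to 379 without either passage 10 array or the second standard day 3 array. For day 7 against day 4 they went from 16402 to 10298 with median centring and 10889 in the value table. Ranked on loess values, the rule kept 65 of the 150, and 99 when ranked on the value table. With the 100 or 200 highest scores in place of 150, the percent changed was 88 or 78.5 on day 4 (81.3 for the 150), 95 or 90 on day 7 (92.7) and 2 or 6 at passage 10 (4). Without 1 array of the 3 selecting groups it kept 138 to 146.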
